A study of Mus musculus with 8 samples.

Results

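The genes described here are 10 markers of the unfolded protein response and of amino acid stress, chosen by symbol from the 22520 genes of an mRNA-seq table: Hspa5, Hsp90b1, Dnajb9, Herpud1, Xbp1, Atf4, Ddit3, Trib3, Asns and Chac1. All 10 were in the table and all 10 passed the filter on low values. Expression was measured in microvascular endothelial cells (MVECs) of C57BL/6 mice at postnatal day 14, in 4 libraries from mice lacking the endocytic and signalling receptor LRP1 in the endothelium (LRP1 KO) and 4 libraries from wild-type littermates (WT). The LRP1 KO mice were LRP1 f/f; Cdh5-CreER+/- and the WT mice LRP1 f/f; Cdh5-CreER-/-, so that both groups carried the floxed Lrp1 alleles and the LRP1 KO mice alone carried the tamoxifen-inducible Cre recombinase, which is driven by the promoter of the endothelial cadherin gene. According to the study's methods the cells were selected with beads carrying an antibody against PECAM-1, and the labels call each library a mix of heart, liver and lung cells. The study, however, describes liver cells and heart and lung cells as separate preparations, so which organs a given library holds is uncertain. Nothing in the labels says that the libraries came from separate animals, so the p-values measure the spread between these libraries, which may be technical. The question addressed here is whether transcripts of the stress genes differed between cells with and without LRP1.

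Proteins that enter the endoplasmic reticulum (ER) are folded there by chaperones. When unfolded proteins pile up, sensors in the ER membrane respond: IRE1 (gene Ern1) splices the mRNA of the transcription factor XBP1, ATF6 is cleaved to release a transcription factor, and PERK (gene Eif2ak3) phosphorylates the initiation factor eIF2α, which lowers general translation while the mRNA of the transcription factor ATF4 is translated more. Lack of amino acids reaches ATF4 through another eIF2α kinase, GCN2 (gene Eif2ak4). ATF6 and XBP1 raise chaperone and degradation genes, whereas ATF4 raises genes of amino acid supply and, with CHOP (gene Ddit3), of feedback and cell death. These are established mechanisms, not results of the present data, and the activity of ATF4, XBP1 and the sensors is set largely after transcription, which transcript levels do not show.

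The promoters are shown because elements linked to the ER and to the amino acid response can be read in some of them. RefSeq promoters (GRCm38.p6, 250 bases before to 50 after the start) were found for 10 of 10 genes and searched on both strands. The ER stress element was written as CCAAT, a gap of 9 bases and CCACG, its second form (ERSE-II) as ATTGG, a gap of 1 base and CCACG, and the amino acid response element as TGATGNAA. Capitals mark the matches and each sequence is printed 5′ to 3′ on the strand of its gene:
Hspa5 (chr2:34772020-34772048, + strand): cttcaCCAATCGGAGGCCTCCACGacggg
Hsp90b1 (chr10:86705513-86705676, - strand): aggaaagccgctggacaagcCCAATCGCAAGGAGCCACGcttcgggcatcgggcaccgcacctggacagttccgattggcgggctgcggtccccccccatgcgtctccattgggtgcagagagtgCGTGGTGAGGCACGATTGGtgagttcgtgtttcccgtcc
Herpud1 (chr8:94386297-94386407, + strand): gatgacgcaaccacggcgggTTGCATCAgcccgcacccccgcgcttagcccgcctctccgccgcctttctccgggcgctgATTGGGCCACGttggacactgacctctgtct
Asns (chr6:7693214-7693243, - strand): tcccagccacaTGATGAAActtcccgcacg
Chac1 (chr2:119351029-119351076, + strand): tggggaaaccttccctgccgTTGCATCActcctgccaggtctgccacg

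The ER stress element was present in the promoters of both large chaperones, Hspa5 and Hsp90b1, and in 39 of all 32851 promoters (0.119%). Hsp90b1 held 2 matches, the second on the opposite strand. ERSE-II was found in Herpud1 and in 12 promoters in all (0.0365%), and the Herpud1 promoter also held an amino acid response element. That element was present in Herpud1, Trib3, Asns and Chac1 and in 1304 promoters in all (3.97%), the Trib3 match lying after the start of RefSeq but before that of GENCODE M21. The XBP1-binding sequence TGACGTGG was in none of the 10 and in 222 promoters in all (0.676%). Dnajb9, Xbp1, Atf4 and Ddit3 held none of the sequences searched. The printed stretches of Hspa5 and Asns fall within first exons of GENCODE M21, which starts these genes further upstream than RefSeq. A match is a description of letters and not evidence of binding, and its absence says only that these letters were not in the window.

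The transcript of the targeted gene was low in every LRP1 KO library: Lrp1 measured 103 to 140 FPKM (a fragment count corrected for transcript length and library size) in WT and 2.79 to 7.72 FPKM in LRP1 KO, a log2 difference of -4.45 ± 0.23 (SE, n = 4 and 4). The fourth LRP1 KO library had the highest remaining Lrp1 and lay between the groups on the first principal component, with a score of 0.102 where the remaining LRP1 KO scores ran from 17.2 to 27.3 and the WT scores from -24.1 to -12.9. Markers of other cells differed between the groups. The summed level of 14 endothelial markers was 170 to 184 FPKM in WT and 176 to 615 FPKM in LRP1 KO. None of them was at 0 throughout. The 176 FPKM belonged to LRP1 KO library 4. All 13 tested estimates were above 0, with a median log2 difference of 0.94. Of the 13, 10 had an unadjusted p under 0.05 by limma, beside 33.7% of all tested genes. After adjustment 1 of the 13 passed the test, and beside all the marker counts here stands 13.6% of all tested genes. The summed level of 14 macrophage markers was 91.1 to 117 FPKM in WT and 250 to 597 FPKM in LRP1 KO, and 10 of the 12 tested were higher. The 9 fibroblast markers summed to 2383 to 3572 FPKM in WT and 1977 to 3165 FPKM in LRP1 KO, and so exceeded the endothelial markers in every library. All 9 estimates were below 0 and 2 of the 9 passed as lower. The 11 further leukocyte markers summed to 3.18 to 3.78 FPKM in WT and 8.15 to 16.2 FPKM in LRP1 KO, with 3 of the 4 tested higher and Cd3e, Nkg7 and S100a9 at 0 in all 8 libraries. The 9 mural cell markers summed to 667 to 833 FPKM in WT and 1032 to 1617 FPKM in LRP1 KO, and 3 of the 7 tested were higher. The Y-linked gene Eif2s3y was at 0.05 FPKM in WT library 4 and 0.06 FPKM in LRP1 KO library 2 and at 10.1 to 35.9 FPKM in the other libraries, so 1 library in each group lacked Y-linked expression. The labels do not give the sex. The part of these differences in the results was not tested, and in such bulk samples fewer cells of a type and less RNA per cell cannot be told apart.

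None of the 10 stress genes passed the test between LRP1 KO and WT, against 13.6% of all 11389 tested genes (1547), made up of 6.27% that rose and 7.31% that fell in LRP1 KO. A difference of 2-fold or more with that p was seen in 1.62% of tested genes. The test was limma on log2(FPKM + 1), with an adjusted p under 0.05 as the threshold. No stress gene had an unadjusted p under 0.05 either, which 3838 tested genes (33.7%) had. The estimates were small, 6 above 0 and 4 below, with a median absolute log2 difference of 0.11 for the stress genes and 0.14 for all tested genes. Precision was similar, since the median standard error was 0.08 for the stress genes and 0.09 for all tested genes. No 95% confidence interval of the 10 reached a 2-fold difference in either direction. A smaller difference than these intervals allow could not be told from none.

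**Figure D1:**
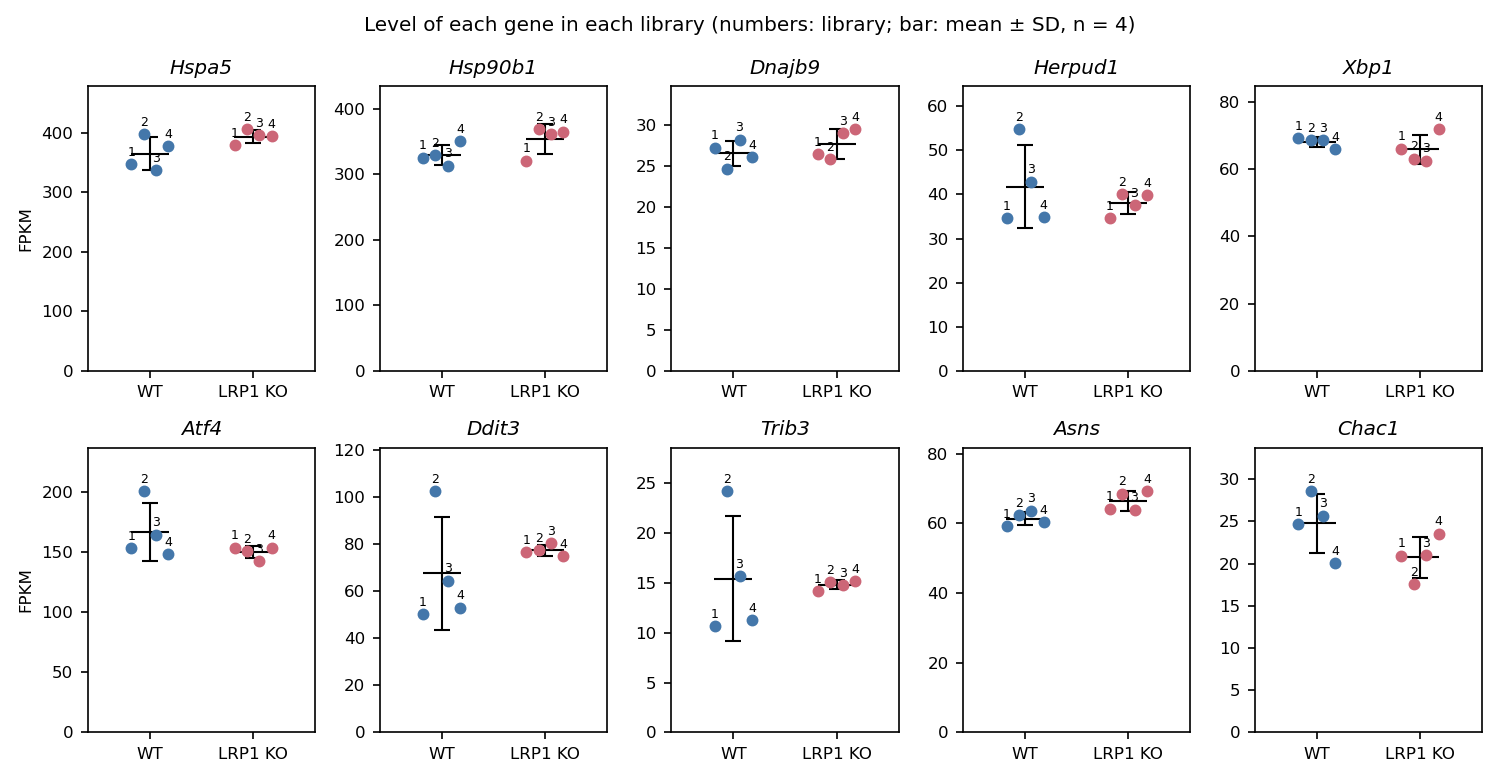
FPKM of each of the 10 stress genes in the 4 WT (blue) and 4 LRP1 KO (red) libraries, on linear axes from 0, with library numbers and the mean ± SD of each group. WT library 2 is the highest of the 8 for Herpud1, Atf4, Ddit3, Trib3 and Chac1, and the LRP1 KO points of Atf4, Ddit3 and Trib3 lie close together.

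The stress genes covered a wide range of levels, in the order Hspa5, Hsp90b1, Atf4, Ddit3, Xbp1, Asns, Herpud1, Dnajb9, Chac1 and Trib3 by mean FPKM, which is corrected for length. The ranges of Hspa5 and Hsp90b1 overlapped over the 8 libraries, as did those of Ddit3 and Xbp1, of Xbp1 and Asns, of Dnajb9 and Chac1, and of Chac1 and Trib3. The other neighbours in the order were separated, for example Hsp90b1, whose lowest library was at 313 FPKM, from Atf4, whose highest was at 201 FPKM.

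The ER chaperones came first in level. Hspa5 (chr2:34771970-34777547) encodes BiP, the main Hsp70 chaperone of the ER, which also holds the sensors inactive. In order of library number, the WT values were 348, 397, 337 and 377 FPKM and the LRP1 KO values 379, 405, 395 and 394 FPKM, and the same order is kept for the genes that follow. The LRP1 KO values lay above WT libraries 1, 3 and 4, and WT library 2 lay among them. The log2 difference was 0.11 ± 0.06 (SE; 95% interval -0.03 to 0.25; adjusted p = 0.242).

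Hsp90b1 (chr10:86690209-86705509) encodes GRP94, the Hsp90 of the ER, which folds integrins and Toll-like receptors. Its levels were 325, 329, 313 and 351 FPKM in WT and 321, 368, 361 and 365 FPKM in LRP1 KO. LRP1 KO library 1 was inside the WT range and the other LRP1 KO libraries were above it. On the log2 scale the groups differed by 0.10 ± 0.06 (95% interval -0.04 to 0.24; adjusted p = 0.283).

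Dnajb9 (chr12:44205559-44210326) encodes ERdj4, a J-domain partner of BiP and a target of the IRE1 branch. It measured 27.2, 24.6, 28.2 and 26.1 FPKM in WT and 26.4, 25.8, 29.0 and 29.4 FPKM in LRP1 KO. The groups overlapped throughout most of their range, and the log2 difference was 0.06 ± 0.07 (95% interval -0.09 to 0.20; adjusted p = 0.571).

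Herpud1 (chr8:94386438-94395377) encodes an ER membrane protein that organizes the degradation of misfolded proteins. It measured 34.6, 54.7, 42.9 and 34.8 FPKM in WT and 34.7, 40.1, 37.6 and 39.8 FPKM in LRP1 KO. All LRP1 KO values lay inside the WT range, which was stretched by library 2. The log2 difference was -0.11 ± 0.13 (95% interval -0.41 to 0.19; adjusted p = 0.604), and without WT library 2 it was 0.03.

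The transcription factors of the response came next. Xbp1 (chr11:5520659-5525893) measured 69.2, 68.6, 68.5 and 65.8 FPKM in WT, an SD of 2.21% of the mean, which was 6.43% in LRP1 KO. It measured 66.0, 63.1, 62.5 and 71.8 FPKM in LRP1 KO, both below and above the WT values. LRP1 KO differed from WT on the log2 scale by -0.05 ± 0.06 (95% interval -0.17 to 0.08; adjusted p = 0.573). These are values per gene and do not separate the spliced mRNA that IRE1 produces from the unspliced form.

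Atf4 (chr15:80255184-80257541) measured 153, 201, 164 and 148 FPKM in WT and 154, 151, 143 and 154 FPKM in LRP1 KO. The groups overlapped, with WT libraries 2 and 3 above every LRP1 KO library. Their log2 difference was -0.14 ± 0.09 (95% interval -0.34 to 0.06; adjusted p = 0.303), and without WT library 2 it was -0.05.

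Ddit3 (chr10:127290774-127296288) encodes CHOP, a transcription factor that acts downstream of ATF4 and favours cell death under lasting stress. It measured 50.2, 103, 64.5 and 53.0 FPKM in WT and 76.5, 77.3, 80.5 and 75.0 FPKM in LRP1 KO. The LRP1 KO libraries were nearly level and lay above 3 of the WT libraries and below WT library 2. The log2 difference over all libraries was the largest upward one of the 10, 0.25 ± 0.19 (95% interval -0.18 to 0.68; adjusted p = 0.379; exact two-sided permutation p = 0.314).

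Ddit3 was also the gene whose call hung on 1 library, and its estimate moved both ways. Without WT library 2 its log2 difference was 0.47 ± 0.09 with an adjusted p of 0.0281 by limma. Without WT library 1 it was 0.13 (adjusted p = 0.674) and without WT library 4 it was 0.16 (adjusted p = 0.624). Without WT library 2 and LRP1 KO library 4 it was 0.48 ± 0.09 with an adjusted p of 0.0143, a set chosen after the data were seen. The estimate was -0.06 ± 0.52 with the macrophage and 0.22 ± 0.28 with the endothelial marker score as a covariate. Of all tested genes, 10% had every LRP1 KO library above WT libraries 1, 3 and 4, as did 3 of the stress genes, namely Hspa5, Ddit3 and Asns. The gene lies 241.9 kb from Lrp1 on the same chromosome, with 9 other protein-coding genes wholly between them. The 3′ end of Ddit3 overlaps Mars, the methionyl-tRNA synthetase gene on the opposite strand, which is not counted among the 9. GENCODE M21 also lists another protein-coding Ddit3 entry on the same strand within the gene. The transcript Gm4189 overlaps the 5′ end on the opposite strand. Whether reads were counted by strand, or how reads shared by such entries were counted, is not given in the sources used here. Mars itself had a log2 difference of -0.08 ± 0.09 (adjusted p = 0.549).

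**Figure D2:**
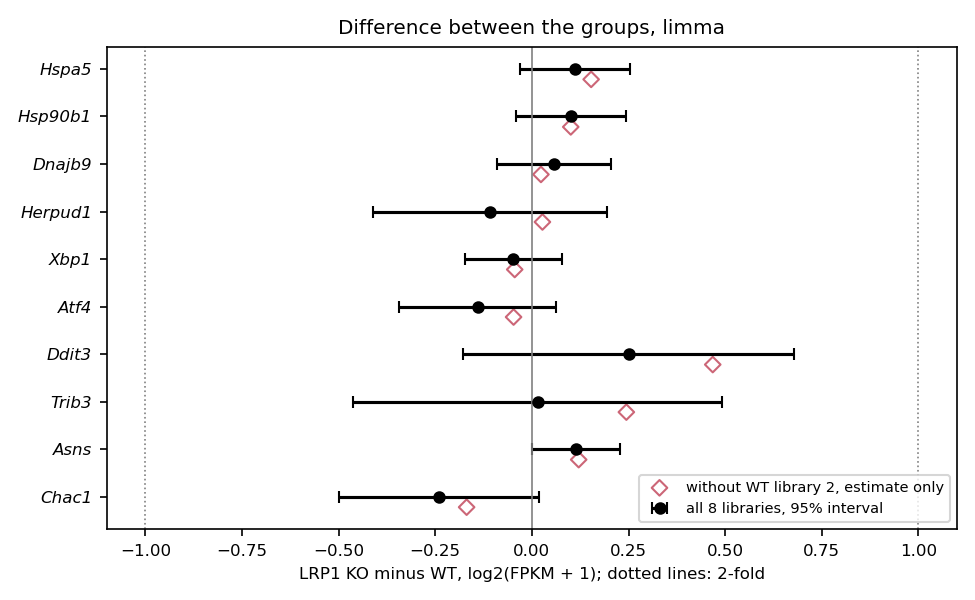
Log2 difference, LRP1 KO minus WT, of each stress gene on log2(FPKM + 1): black points and bars are the limma estimate from all 8 libraries with its 95% interval, open diamonds the estimate without WT library 2, and dotted lines mark a 2-fold difference. No interval reaches 2-fold, and the diamonds of Ddit3, Trib3 and Herpud1 lie to the right of their points, at 0.47, 0.24 and 0.03.

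The last 3 of the stress genes, Trib3, Asns and Chac1, are targets of ATF4. Trib3 (chr2:152337422-152344032) encodes a pseudokinase that restrains ATF4 and CHOP activity. It measured 10.6, 24.2, 15.7 and 11.2 FPKM in WT and 14.2, 15.1, 14.8 and 15.2 FPKM in LRP1 KO. The 4 LRP1 KO libraries sat in the middle of the WT range. An estimated log2 difference of 0.01 ± 0.21 was found (95% interval -0.46 to 0.49; adjusted p = 0.970), and its direction turned when WT library 1 or 4 was left out, to -0.13 and -0.10.

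Asns (chr6:7675169-7693254) encodes asparagine synthetase, which makes asparagine from aspartate. It measured 59.3, 62.4, 63.7 and 60.3 FPKM in WT and 64.3, 68.6, 63.9 and 69.3 FPKM in LRP1 KO. It was the only stress gene whose groups did not overlap, the lowest LRP1 KO library standing just above the highest WT library, whereas the groups did not overlap for 19.6% of tested genes. The log2 difference was 0.11 ± 0.05, with a 95% interval that ended just below 0 at its lower side and at 0.23 at its upper side. The adjusted p by limma was 0.151. The exact two-sided permutation p was 0.0286, the smallest that 4 against 4 libraries can give. The macrophage marker score, the mean log2(FPKM + 1) of those markers, did not overlap between the groups either. It was 1.62 to 2.13 in WT and 2.94 to 3.95 in LRP1 KO, so a fit with it cannot separate the score from the group. With that score as a covariate the Asns estimate was -0.10 ± 0.13. With the endothelial score it was 0.17 ± 0.07 (adjusted p = 0.370 by limma). The part of either in the Asns difference was not tested.

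Chac1 (chr2:119351229-119354381) encodes an enzyme that breaks down glutathione. It measured 24.7, 28.6, 25.7 and 20.1 FPKM in WT and 20.9, 17.6, 21.0 and 23.5 FPKM in LRP1 KO. Apart from WT library 4 the WT values were all above the LRP1 KO values. The log2 difference was the largest downward one of the 10, -0.24 ± 0.11 (95% interval -0.50 to 0.02; adjusted p = 0.175).

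The WT libraries differed among themselves most in Trib3, Ddit3 and Herpud1. WT library 2 was the highest of all 8 libraries for Trib3, Ddit3, Herpud1, Atf4 and Chac1, that is for 5 of the 10 genes, against 19.2% of tested genes. For the same 5 genes WT library 2 was at least 1.2 times the mean of the other 3 WT libraries, which was so for 8.68% of tested genes. The ratio was 1.94 for Trib3, 1.83 for Ddit3, 1.46 for Herpud1, 1.29 for Atf4 and 1.22 for Chac1. WT library 3 was second among the WT libraries for these 5 genes, an order that 8.85% of tested genes had. In Hspa5 the ratio was 1.12, and in Dnajb9 WT library 2 was the lowest of the 4 WT libraries. This pattern was noticed in the data and is given with no test.

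The relative spread of Trib3, Ddit3, Herpud1 and Atf4 is given for both groups as a description, with no test. The SD was 40.6% of the mean in WT and 3.01% in LRP1 KO for Trib3, 35.7% and 3.01% for Ddit3, 22.7% and 6.62% for Herpud1, and 14.3% and 3.46% for Atf4. The median over the 10 genes was 10.9% in WT and 5.27% in LRP1 KO, beside 9.52% and 8.95% over all tested genes. Without WT library 2, a choice made after the data were seen, the WT spread was 21.9% for Trib3, 13.5% for Ddit3, 12.6% for Herpud1 and 5.36% for Atf4. Each of these stayed above its LRP1 KO value. The median over the 10 genes was then 5.85%, near that of LRP1 KO, beside 8.99% over all tested genes. Leaving out a library because it was the highest tends to lower the spread, so these values do not show how much of the contrast it carries. Xbp1, Hsp90b1, Asns and Dnajb9 went the other way, with the larger relative spread in LRP1 KO. WT library 2 also had the highest summed level of the 9 fibroblast markers, 3572 FPKM, and the lowest summed level of the 9 mural cell markers, 667 FPKM. The part of these in the pattern was not tested.

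**Figure D3:**
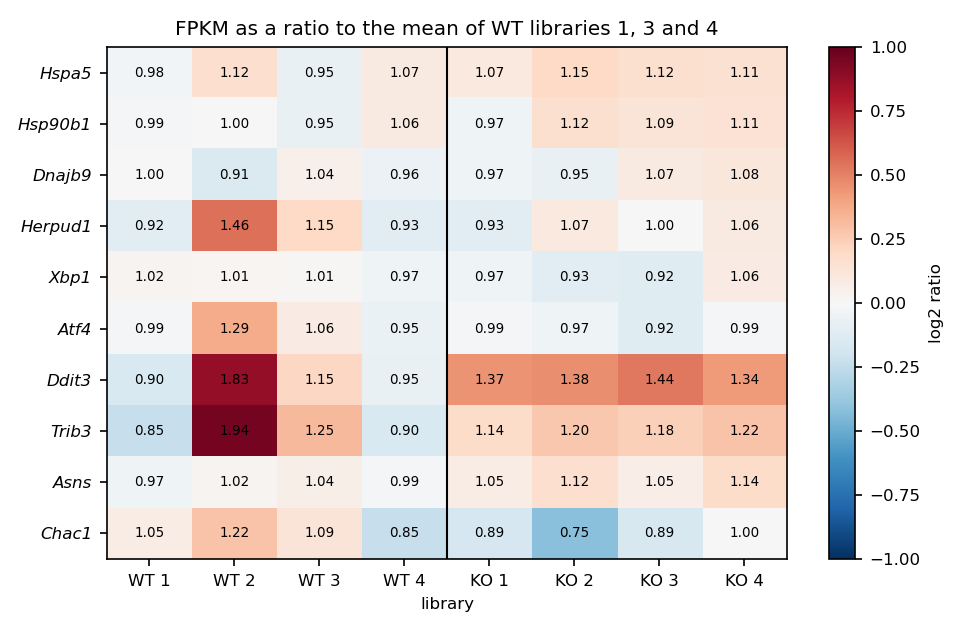
FPKM of each stress gene in each library as a ratio to the mean of WT libraries 1, 3 and 4, printed in the cells and coloured on a log2 scale from -1 (blue) to 1 (red). WT library 2 stands out at 1.94 for Trib3 and 1.83 for Ddit3, and the row of Ddit3 is red across the 4 LRP1 KO libraries. The baseline leaves out WT library 2, a choice made after the data were seen. With all WT libraries as the baseline, the LRP1 KO mean of Ddit3 is 1.14 times the WT mean.

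The wider pathways were examined with 7 lists that hold 100 genes, of which 97 were tested and 14 passed, 11 higher and 3 lower in LRP1 KO. That is 14.4% of the tested list genes, near the 13.6% of all tested genes. None of the 14 reached 2-fold. The lists differed in how many genes had an unadjusted p under 0.05 by limma, which 33.7% of all tested genes had. The counts were 2 of 16 ER chaperones, 9 of 13 sensors and 3 of 14 degradation genes. For the ATF4 and CHOP list it was 8 of 15 and for amino acid synthesis and transport 7 of 15. For the synthetases it was 4 of 12 and for the heat shock proteins 6 of 12. No test was made over a list.

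Among 16 ER chaperones and folding enzymes 1 passed, and the median log2 difference was 0.08. It was Hyou1, an ER chaperone of the Hsp110 family that serves BiP as an exchange factor, which rose from 32.6 ± 2.03 to 37.6 ± 0.94 FPKM (SD, n = 4; log2 difference 0.20 ± 0.06; adjusted p = 0.0489). Of 14 tested genes of ER-associated degradation none passed at an adjusted p under 0.05 by limma, 3 having an unadjusted p under 0.05. The largest estimates there were -0.32 ± 0.12 for Os9, a lectin that delivers misfolded glycoproteins (adjusted p = 0.0896, and 0.0215 without LRP1 KO library 4), and 0.24 ± 0.16 for Edem3, a mannosidase (adjusted p = 0.317).

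Among 13 sensors and transducers 3 passed, all higher, with a median log2 difference of 0.19. The ER and amino acid sensors were not among them. The estimate was 0.25 ± 0.11 for Ern1 (adjusted p = 0.143), 0.23 ± 0.07 for Eif2ak3 (adjusted p = 0.0662), -0.12 ± 0.08 for Atf6 (adjusted p = 0.317) and -0.11 ± 0.08 for Eif2ak4 (adjusted p = 0.355). Eif2ak2, the interferon-induced eIF2α kinase PKR that senses double-stranded RNA, rose from 13.3 ± 1.94 to 21.7 ± 2.87 FPKM (log2 difference 0.67 ± 0.12; adjusted p = 0.0100). Eif2s1, which encodes eIF2α itself, rose by 0.42 ± 0.10 (adjusted p = 0.0250). Creb3l1, an ER-bound transcription factor known from collagen secretion, rose by 0.32 ± 0.09 (adjusted p = 0.0405).

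Of 15 regulators and feedback genes of ATF4 and CHOP, 2 were higher and 2 lower. Atf3, a stress-induced transcription factor, rose from 4.46 ± 0.997 to 8.27 ± 0.89 FPKM (log2 difference 0.78 ± 0.13; adjusted p = 0.00839). Pmaip1, which encodes the pro-apoptotic protein NOXA, rose by 0.54 ± 0.13 (adjusted p = 0.0284). Ddit4, an inhibitor of mTORC1, fell from 37.2 ± 3.98 to 26.6 ± 3.81 FPKM (log2 difference -0.47 ± 0.11; adjusted p = 0.0263). Bcl2l11, which encodes the pro-apoptotic protein BIM, also fell, with a log2 difference of -0.37 ± 0.10 (adjusted p = 0.0373). The list thus held genes linked to cell death in both directions.

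Of 15 tested genes of amino acid synthesis and transport, 1 was higher and 1 lower. Aldh18a1, an enzyme of proline synthesis, rose from 19.8 ± 1.34 to 24.3 ± 0.42 FPKM (log2 difference 0.28 ± 0.06; adjusted p = 0.0187). Slc1a5, the glutamine transporter ASCT2, fell from 71.9 ± 8.66 to 44.8 ± 12.6 FPKM (log2 difference -0.71 ± 0.19; adjusted p = 0.0374). Slc7a5, which was on the list, was not analysed here.

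Among 12 cytosolic aminoacyl-tRNA synthetases 3 were higher and none lower. Gars rose by 0.20 ± 0.05 (adjusted p = 0.0409), Nars by 0.24 ± 0.05 (adjusted p = 0.0182) and Wars, which interferon also induces, by 0.34 ± 0.07 (adjusted p = 0.0203). They charge the tRNAs of glycine, asparagine and tryptophan. Among 12 heat shock proteins of cytosol and mitochondria, Hspd1, the mitochondrial chaperonin, rose by 0.25 ± 0.06 (adjusted p = 0.0330).

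**Figure D4:**
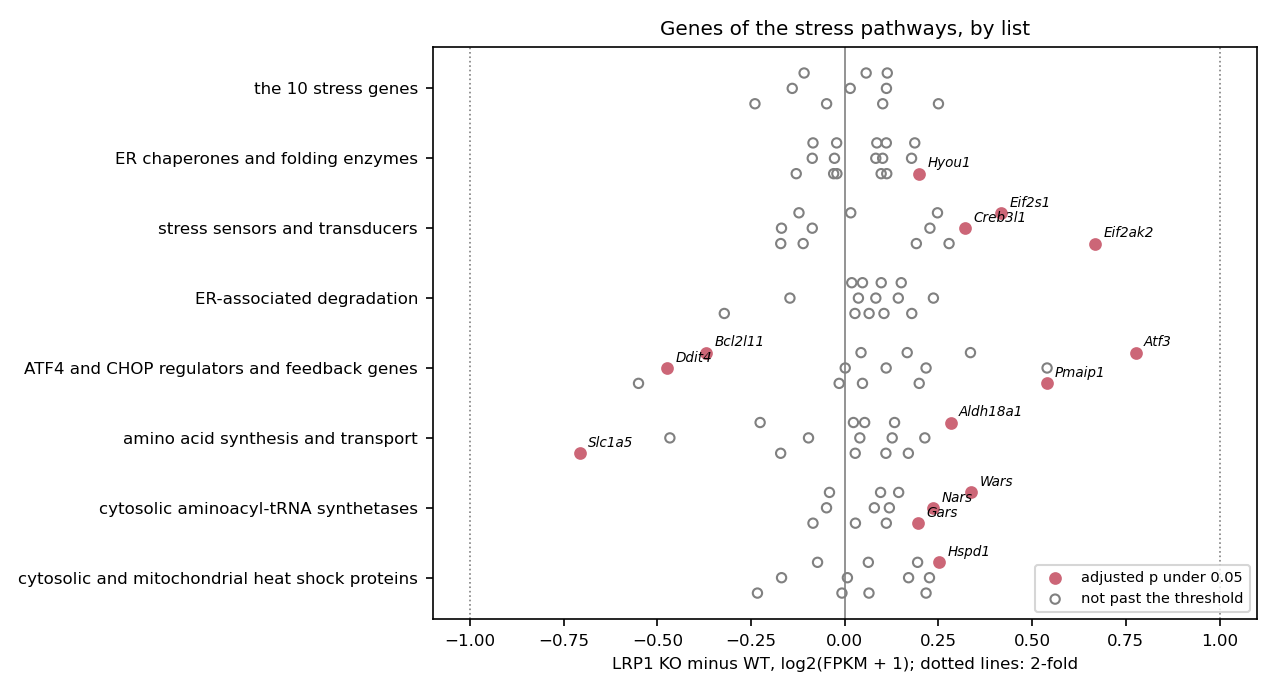
Log2 difference, LRP1 KO minus WT on log2(FPKM + 1), of every tested gene of the 10 stress genes and of 7 pathway lists, 1 point a gene with a vertical offset for legibility. Filled points passed an adjusted p under 0.05 and are named, open points did not. No stress gene is filled, 14 listed genes are, and none of them lies beyond the dotted 2-fold lines.

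Most of these calls depended on the set of libraries. Eif2ak2 and Atf3 passed whichever library was left out, and the other 12 lost their call in at least 3 of the 8 sets that lacked 1 library. With the macrophage marker score as a covariate none of the 14 passed. All 14 estimates kept their direction and were larger, by a median of 1.69 times, while their standard errors grew by a median of 2.62 times. That score did not overlap between the groups, so the fit cannot separate it from the group. With the endothelial marker score none passed either, and all 14 estimates kept their direction but were smaller, at a median of 0.667 times, with standard errors 1.27 times as large.

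The genes whose levels followed 3 of the stress genes most closely over the 8 libraries were listed by Pearson's r on log2(FPKM + 1), as a description. For Hspa5 they were Slc22a15 (0.94), Ddx42 (0.92), Sdf2l1 (0.89), Erbb2 (0.89) and Pstk (0.88), of which Sdf2l1 belongs to the list of ER chaperones. For Atf4 they were Il4i1 (0.98), Mtch2 (0.95), Pih1d1 (0.95), Cyth2 (0.95) and Polr3b (0.95). For Asns they were Car12 (0.97), Chi3l3 (0.97), Pik3r5 (0.96), Wfdc17 (0.96) and C1qa (0.96), of which C1qa is on the macrophage marker list. All points of each r share the libraries that the group comparison uses. They are the highest r among all tested genes over only 8 libraries. How high such picked values run by chance was not tested, so they are not evidence of shared regulation.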

How the data were processed

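mRNA-seq libraries were prepared with an Illumina TruSeq kit. The submitters' processing notes name TopHat2, Cufflinks and mm10, without roles or versions, whereas the study's methods describe STAR and featureCounts, which give counts. The deposited values, taken here as FPKM, are not whole numbers. The 8 columns share 1 highest value and nearly the same distribution, so they were quantile normalized before the authors deposited them. The unit is inferred, depth is unknown and no counting error could be computed.

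Genes with at least 1 FPKM in at least 4 libraries were tested (11389 of 22520) on log2(FPKM + 1) by limma 3.58.1 in R 4.3.3, with a trended prior variance, the group as only term and Benjamini-Hochberg adjustment. Differences on this scale understate the fold change of low genes. Single genes were also compared by an exact two-sided permutation test over 70 splits. The count test of the study was not usable on such values. The test was also run on simulated tables with independent noise and known changes of 2-fold or more. Those tables lack the library-wide differences of these data and differences as small as those of the stress genes. They therefore do not show how the test performs here.

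The 10 genes, the pathway lists and the marker lists were chosen with earlier results of these data known. Named are the 10 genes, Lrp1, the list genes past the threshold, in a list without any the 2 largest estimates, the sensors Ern1, Eif2ak3, Atf6 and Eif2ak4, and the 5 genes that correlate best with Hspa5, Atf4 and Asns. Mars, Eif2s3y and the markers at 0 were named after their values were seen. Positions came from GENCODE M21 (GRCm38, the assembly mm10 denotes) and promoters from RefSeq. Alternatives were a pseudocount of 0.1, no filter, rescaled libraries, array weights, a replicate block, marker scores as covariates and leaving out libraries.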

Additional observations from a re-analysis of the deposited data

Results flagged for a closer look

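In 31 named genes, 62 groups of 4 libraries were searched for a library set apart from the others by a gap larger than Dixon's 95% critical value, as a share of the group's range. Chance flags about 1 in 20 groups, and 3 were found, 1 of them among the 20 groups of the stress genes. Hsp90b1 in LRP1 KO library 1 was at 321 FPKM, below the 361 to 368 FPKM of the other LRP1 KO libraries. Creb3l1 in WT library 1 was at 17.2 FPKM, below the 20.7 to 21.2 FPKM of the other WT libraries. Os9 in WT library 2 was at 65.0 FPKM, above the 50.1 to 51.7 FPKM of the other WT libraries. The high values of Trib3 and Ddit3 in WT library 2 did not meet this rule.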

How the results depend on the processing

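None of the 10 stress genes passed under a pseudocount of 0.1, no filter, rescaled libraries, array weights, a replicate block or either marker covariate. Over the sets without 1 library 0 or 1 passed, the 1 being Ddit3 without WT library 2, and 1 passed, again Ddit3, without WT library 2 and LRP1 KO library 4. The number of genes called was 1547, and 1537 with the pseudocount of 0.1, 1163 without the filter and 1568 after rescaling. The split was 714 higher and 833 lower, and 825 higher and 743 lower after rescaling. It was 1013 with the replicate block, 11 with the macrophage and 171 with the endothelial covariate, 3003 with array weights and 2050 without both libraries. It ranged from 433 (without LRP1 KO library 2) to 2959 (without LRP1 KO library 4) over the sets without 1 library, the others being 841, 502, 914 and 989 without WT libraries 1 to 4 and 478 and 468 without LRP1 KO libraries 1 and 3. Past 2-fold as well were 184 genes, and 11 and 95 with the covariates, 282 with array weights, and 113 to 312 without 1 library (114 without LRP1 KO library 1 or 3). The cause of these shifts was not tested. The macrophage score does not overlap between the groups, so a fit with it cannot separate the score from the group. The median standard error over all tested genes was 0.235 in that fit and 0.088 without a covariate. That no stress gene passed there is therefore uninformative. The direction of some small estimates turned: Xbp1 to 0.026 with the endothelial covariate, Ddit3 to -0.059, Trib3 to -0.54 and Asns to -0.10 with the macrophage covariate, Herpud1 to 0.027 without WT library 2 (range without 1 library -0.19 to 0.027), Trib3 to -0.13 and -0.10 without WT library 1 and 4 (range -0.13 to 0.24), and, without WT library 2 and LRP1 KO library 4, Dnajb9 to -0.0064 (range without 1 library 0.023 to 0.088) and Herpud1 to 0.0054. Lrp1, the 14 pathway genes past the threshold, Os9, Edem3 and the 4 sensors kept their direction throughout, and the remaining named genes were not refitted. Over the sets without 1 library Xbp1 ran from -0.090 to -0.024 and Edem3 from 0.15 to 0.35. Atf6 ran from -0.17 to -0.053 and Eif2ak4 from -0.15 to -0.057. Os9 passed with array weights (adjusted p = 0.0320), without LRP1 KO library 4 (0.0215) and without WT library 2 and LRP1 KO library 4 (0.0269). Same-numbered libraries of the groups deviated together with r = 0.158, 0.141, 0.34 and -0.312, and 5 of 8 libraries correlated best with their own number. This is a hint from the data in some of the pairs, but the fourth pair went the other way and the labels give no shared origin, so the libraries were not treated as paired. The replicate block kept 10 of the 14 pathway calls, without Hyou1, Bcl2l11, Gars and Hspd1.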
